A study of Mus musculus with 12 samples.

Results

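L-cDC2 and M-cDC2 are the sorted conventional dendritic cell type 2 (cDC2) samples of a study of mouse spleen, and they are compared here as 3 libraries against 3, out of 12 libraries in all. The labels give every sample the genotype Il7r-cre; Rosa26-lsl-tdTomato, a line in which a Cre driven by the Il7r locus switches on a red reporter for good, so that cells with past Il7r expression and their offspring stay marked. The design and growth texts instead name naive wild type C57BL/6J mice, aged 7 to 8 weeks, and no treatment is given for any group. The series title speaks of cDCs of lymphoid origin, but the letters L and M are not spelled out, and the labels do not state whether sorting used the reporter or which surface markers formed the gate. The remaining 6 libraries are L-cDC1 and M-cDC1, the other cDC subset sorted from the same tissue under the same labels. Genes with at least 1 FPKM (fragments scaled to gene length and to library size) in at least 3 of the 12 libraries were compared, which kept 12434 of 55322 rows. Of these, 93 carry a type beginning with IG_ or TR_, the gene segments of immunoglobulins and T cell receptors, and they are reported apart from the other 12341.

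A cDC2 takes up antigen and presents it on MHC class II to CD4 T cells. The subset depends on Irf4, Notch2 and other factors, and in spleen it has been divided into an Esam-bearing class that needs Notch signals (cDC2A) and a class with more myeloid features, among them Clec12a, Ccr2, Cx3cr1 and Lyz2 (cDC2B). Most cDCs descend from myeloid progenitors through a committed pre-DC, while lymphoid progenitors with Il7r expression can also give rise to them. Lymphocytes share that history of Il7r expression, so in such a reporter line they carry the mark too.

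The cDC2 libraries held 15879864 to 24498235 reads assigned to genes, and 11111 to 11570 genes reached 1 FPKM in each. Across genes, which are not independent replicates, the Pearson correlation of log2 values was 0.958 to 0.967 among the L-cDC2 libraries, 0.968 to 0.976 among the M-cDC2 libraries and 0.935 to 0.96 between the groups. Nothing in the labels gives each replicate an animal of its own. The p-values therefore reflect only the scatter of these libraries, which could be technical. In bulk RNA, fewer cells of a type and less RNA per cell cannot be told apart. An exact two-sided permutation test of 3 libraries against 3 cannot go below p = 0.1. Differences were therefore tested with limma, which pools the spread over genes, on log2(FPKM + 1), and a gene was called at a Benjamini-Hochberg adjusted p under 0.05. The spread of each gene was taken from all 12 libraries, the cDC1 groups included. With the cDC2 libraries alone fewer genes were called, as given below.

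Promoter sequences of 4 genes that differed between the groups are shown as examples picked because their windows hold letters recognised by factors of myeloid or lymphoid cells. The windows of Gimap4, Calhm6, Lyz2, Ccr2 and Cd79a were read too, and the last 3 hold none of the letters searched. They are the 250 bases before the RefSeq start in mouse build GRCm38.p6, chosen after the values were seen. Capitals mark matches on either strand to GAGGAAG (PU.1, a factor of myeloid and B cells), TTNNGCAA (C/EBP, a family active in granulocytes and monocytes) or GAAA, any 2 bases, GAAA (paired half-sites of interferon regulatory factors).
Csf3r, chr4:126024409-126024658, plus strand: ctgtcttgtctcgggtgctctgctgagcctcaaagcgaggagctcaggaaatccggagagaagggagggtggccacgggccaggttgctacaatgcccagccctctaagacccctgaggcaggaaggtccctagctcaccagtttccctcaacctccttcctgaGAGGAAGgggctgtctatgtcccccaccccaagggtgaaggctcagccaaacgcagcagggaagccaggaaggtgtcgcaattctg
Clec12a, chr6:129349994-129350243, plus strand: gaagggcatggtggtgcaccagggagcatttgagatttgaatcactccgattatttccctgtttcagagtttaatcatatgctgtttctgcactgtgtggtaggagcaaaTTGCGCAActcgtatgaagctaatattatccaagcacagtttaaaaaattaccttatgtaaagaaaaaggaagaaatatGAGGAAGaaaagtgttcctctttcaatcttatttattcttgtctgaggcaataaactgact
Adgre4, chr17:55749734-55749983, plus strand: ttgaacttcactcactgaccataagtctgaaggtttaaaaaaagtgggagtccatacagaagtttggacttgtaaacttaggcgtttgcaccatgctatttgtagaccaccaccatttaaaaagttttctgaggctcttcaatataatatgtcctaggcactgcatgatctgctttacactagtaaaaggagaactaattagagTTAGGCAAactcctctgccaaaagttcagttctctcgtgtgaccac
Gzma, chr13:113100982-113101231, minus strand: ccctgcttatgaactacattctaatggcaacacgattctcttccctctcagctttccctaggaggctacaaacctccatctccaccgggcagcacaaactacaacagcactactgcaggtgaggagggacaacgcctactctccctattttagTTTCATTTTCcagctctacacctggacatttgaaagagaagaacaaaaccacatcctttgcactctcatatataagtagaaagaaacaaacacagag
Csf3r encodes the receptor for granulocyte colony-stimulating factor, Clec12a an inhibitory lectin of myeloid cells, Adgre4 an adhesion G protein-coupled receptor of myeloid cells, and all were lower in L-cDC2. Gzma encodes a granule protease of killer lymphocytes and was higher. The PU.1 letters lay 86 bases before the start in Csf3r and 61 in Clec12a, the C/EBP letters 140 in Clec12a and 46 in Adgre4, and the paired half-sites 97 in Gzma. Of the windows not printed, that of Gimap4, higher in L-cDC2, holds the PU.1 letters 33 bases before the start. That of Calhm6, lower in L-cDC2, holds the paired half-sites 64 bases before it. Both kinds of letters thus stood in genes of either direction. Such matches were common. RefSeq windows matched 81 of the 98 genes called lower and 46 of the 78 called higher, and the PU.1 letters stood in 16% of the former and 17.4% of the latter, against 13% of the tested genes with a window and 10.6% of all windows. For C/EBP the shares were 13.6% and 13%, against 8.88% and 9.56%. For the paired half-sites they were 8.64% (7 genes) and 6.52% (3 genes), against 3.64% and 2.98%. Of other letters searched, those of EBF (CCCNNGGG) stood in 16% of the lower and 23.9% of the higher genes, against 17.5% and 11.8%. An EBF match 59 bases before the start of Csf3r is not in capitals above, and Gimap4 holds another 154 bases before its start. The octamer stood in 1.23% and 4.35%, against 1.6% and 1.6%, and the E-box CAGCTG in 19.8% and 19.6%, against 13.1% and 13%. These shares are descriptions of letters and were not tested.

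Outside the immunoglobulin and T cell receptor segments, 78 genes were higher in L-cDC2 and 98 were lower, which is 0.632% and 0.794% of the 12341 tested. Over all 12434 rows 1.83% were called. At an unadjusted p under 0.05, 1186 of the 12341 genes passed. In each of the 176 called genes the 3 L-cDC2 values did not overlap the 3 M-cDC2 values. With so few libraries a small p goes with such separation, so it is no further support for the calls. Its share over all tested genes is not given here. The rises were steep and mostly from very low levels, with a median log2 difference of 1.49, and 51 of the 78 had a mean under 1 FPKM in M-cDC2. The falls were shallower and sat on genes with more transcript, with a median of -1.04, and 26 of the 98 had a mean under 1 FPKM in L-cDC2. The median over all tested genes was 0.03. A difference of 1 or more in size was reached by 69 rises and 53 falls, and one of 2 or more by 26 and 2.

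**Figure D1:**
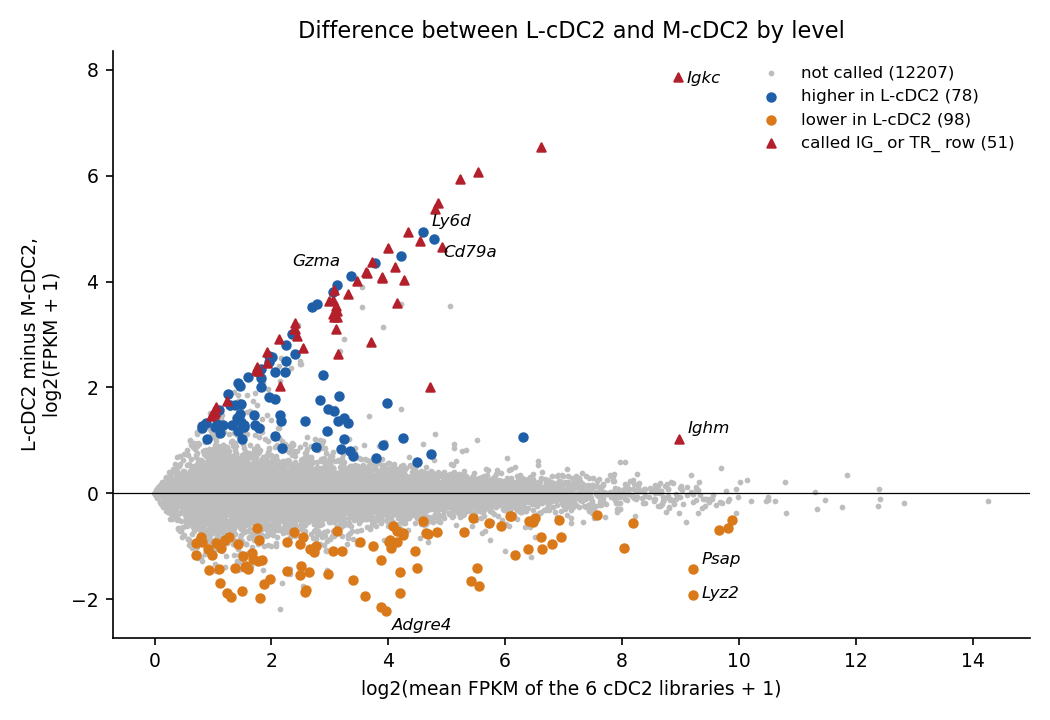
Difference L-cDC2 minus M-cDC2 on the log2(FPKM + 1) scale (vertical axis) against the log2 mean level over the 6 cDC2 libraries (horizontal axis), 1 point per tested row. Blue and orange points are the 78 higher and 98 lower genes, red triangles the 51 called IG_ or TR_ rows, grey points the rows not called. The rises lie at the left and upper edge, near the limit set by an M-cDC2 level of 0, and the falls reach into highly expressed genes such as Lyz2 and Psap.

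The subset label was checked first against cDC2 identity genes, and most did not pass the test between L-cDC2 and M-cDC2. Of 20 such genes tested, 2 were lower in L-cDC2 (Cd209a and Csf1r), 0 were higher and 18 did not pass, with a median difference of -0.07. Their summed level was 2427 to 2597 FPKM in L-cDC2 and 2647 to 2757 in M-cDC2, against 172 to 201 in the cDC1 libraries. Most of the gap between the cDC2 groups was Cd209a, at 157 to 186 FPKM in L-cDC2 and 313 to 382 in M-cDC2. Sirpa, the Cd47 receptor used to gate cDC2, stood at 195, 171 and 185 FPKM in L-cDC2 replicates 1 to 3 and at 229, 200 and 214 in M-cDC2 (difference -0.22, SE 0.19, limma adjusted p = 0.779). Irf4, the transcription factor most tied to the subset, stood at 9.96, 9.96 and 10.8 FPKM against 14.3, 12.6 and 12.4. It did not pass either (-0.33, adjusted p = 0.701). Clec4a4, a lectin of splenic cDC2 known as DCIR2, stood at 261, 296 and 357 FPKM against 261, 234 and 283, with overlapping groups. Of the cDC1 markers, Xcr1 stood at 0.773 to 1 FPKM in L-cDC2 and 1.29 to 2.08 in M-cDC2, and the whole list summed to 465 to 546 and 485 to 530, so the groups overlapped. Among 19 cDC1 identity genes, 3 were lower in L-cDC2. Clec9a, a receptor for the cytoskeleton of dead cells, stood at 0.535, 0.864 and 0.786 FPKM against 2.88, 1.78 and 1.68. Naaa, a lysosomal amidase, stood at 14, 11.4 and 14.2 against 22.1, 26.4 and 20.1. Ifi205 stood at 1.3, 1.56 and 1.33 against 3.9, 4.24 and 2.4, and its call ended without L-cDC2 replicate 1 or 3 or M-cDC2 replicate 1 or 2 (highest adjusted p 0.0925). Exons of Clec9a overlap those of Clec1b on the same strand, so its reads are uncertain.

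Several genes of the cDC2B class were lower in L-cDC2, and most of the cDC2A class did not pass. Of 14 cDC2B genes, 6 were lower (Lyz2, Csf1r, Ccr2, Clec12a, Cd209a and Cx3cr1), 1 was higher and 7 did not pass, with a median of -0.80. Summed over the list, L-cDC2 libraries held 472, 634 and 482 FPKM and M-cDC2 libraries 1511, 1540 and 1345. Much of that gap was Lyz2 and Cd209a. Without both, an alternative chosen after seeing the data, the sums were 92.3, 113 and 114 against 160, 206 and 181. Of 10 cDC2A genes, Cst3 was lower and 9 did not pass, with a median of 0.13, and 8 had a positive difference. Summed over the list, L-cDC2 libraries held 1233, 1326 and 1452 FPKM and M-cDC2 libraries 1447, 1834 and 1595. Cst3 alone made up most of each of these sums, so their overlap says little about the other members. A sum without Cst3 is not given here. Esam stood at 50.5, 58.2 and 42.7 FPKM in L-cDC2 against 39.8, 38.3 and 45.6 in M-cDC2 (0.28, adjusted p = 0.721). Cd4 stood at 71.1, 86.4 and 94 against 76.8, 71.8 and 77.7 (0.14, adjusted p = 0.851), and Notch2 at 23.9, 19.6 and 19.8 against 22, 22.4 and 18.8. Tbx21, the T-bet gene that has been used to mark cDC2A, stood at 45.6, 51.1 and 46.7 FPKM against 29.7, 27.2 and 24.6. Its groups did not overlap, but with a difference of 0.80 (SE 0.26) it did not pass (adjusted p = 0.23), and it passed when the 6 cDC2 libraries were fitted alone. Klf4, needed by some cDC2, stood at 11.4, 17 and 9.69 against 12.3, 14.3 and 8.23.

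Lyz2, the lysozyme of macrophages and other myeloid cells (chromosome 10, 117113236 to 117118226, minus strand in the deposited table, whose build is not given in the sources used here), stood at 223, 351 and 182 FPKM in L-cDC2 and at 969, 1021 and 804 in M-cDC2. All 3 L-cDC2 libraries lay far below the lowest M-cDC2 library, at a mean of 252 ± 88.2 against 932 ± 113 FPKM (SD, n = 3 each). The difference was -1.93 (SE 0.18, limma adjusted p = 5.00e-05). Csf1r, the receptor for macrophage colony-stimulating factor, stood at 20.9, 24 and 27.4 FPKM against 64.1, 67.8 and 64, a difference of -1.41 (SE 0.15, adjusted p = 0.000106). Its exons overlap those of Hmgxb3 on the opposite strand, and the library kits do not keep strand. Cd209a, the lectin DC-SIGN, stood at 157, 170 and 186 FPKM against 382, 313 and 360 (-1.03, adjusted p = 0.00549). Ccr2, the chemokine receptor that draws monocytes out of the marrow, stood at 1.58, 2.17 and 1.79 against 7.99, 7.41 and 6.66 (-1.55, adjusted p = 0.000148). Clec12a stood at 3.36, 3.16 and 2.82 against 7.66, 10.5 and 6.07 (-1.12, adjusted p = 0.00417). Cx3cr1, the fractalkine receptor, stood at 2.93, 2.8 and 0.942 against 7.42, 8.79 and 5.07, and this call was lost when M-cDC2 replicate 1 or 2 was left out (highest adjusted p 0.102).

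**Figure D2:**
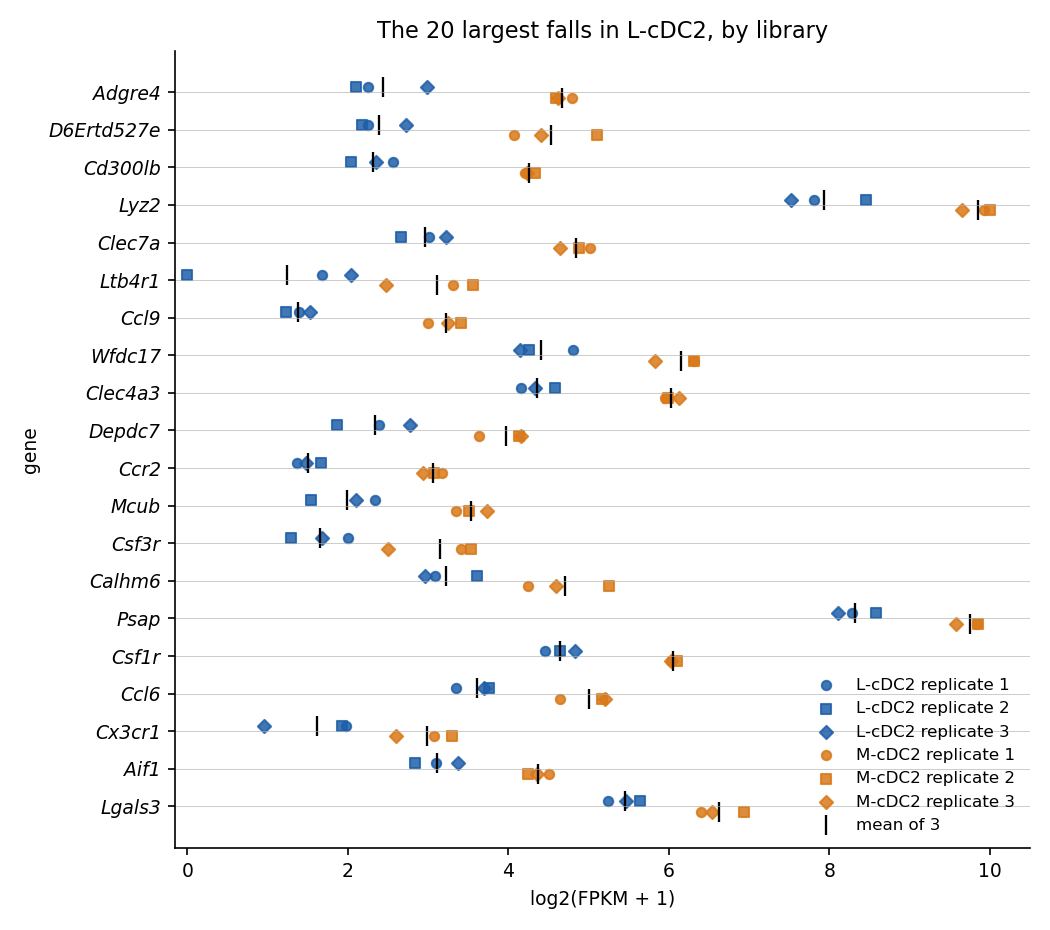
Levels of the 20 genes with the largest falls among those with a mean of at least 5 FPKM in M-cDC2, on the log2(FPKM + 1) scale (horizontal axis), 1 row per gene in order of the size of the difference. Blue marks are L-cDC2 and orange marks M-cDC2, with a symbol for each replicate and a black bar at the mean of 3. In each gene the blue marks lie left of the orange ones, and Ltb4r1, Cx3cr1 and Csf3r have the widest spread within a group.

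Lectins, paired receptors and adhesion receptors of myeloid cells made up several of the largest falls. Of 22 C-type lectin receptors, 5 were lower and 0 higher (median -0.34). Clec7a, the beta-glucan receptor Dectin-1 (typed as a polymorphic pseudogene in the deposited table), stood at 7.03, 5.34 and 8.31 FPKM in L-cDC2 against 31.3, 28.3 and 24 in M-cDC2 (-1.88, SE 0.21, adjusted p = 0.000152). Clec4a3, a relative of DCIR, stood at 16.9, 22.9 and 19.1 against 60.8, 62.4 and 69 (-1.67). Cd300lb was the single called gene of 21 Cd300, Siglec and paired receptor genes, at 4.89, 3.11 and 4.1 FPKM against 17.4, 19.2 and 17.8 (-1.94, adjusted p = 3.61e-05). Adgre4 had the largest fall of the 98, at 3.74, 3.27 and 6.91 against 26.7, 23.2 and 23.5 (-2.23, SE 0.25, adjusted p = 0.000196). With a pseudocount of 0.1 FPKM in place of 1, Adgre4 and Clec4a3 did not pass (adjusted p = 0.0813 and 0.146). Ace, an angiotensin-cutting peptidase of monocytes, was near the floor in L-cDC2 at 0.381, 0.417 and 0.438 FPKM and stood at 4.92, 5.05 and 3.83 in M-cDC2 (-1.98, adjusted p = 8.46e-05). Its exons overlap those of Gm11651 on the opposite strand. Aif1, a calcium-binding protein of macrophages, stood at 7.59, 6.14 and 9.39 against 21.7, 18 and 19.4 (-1.26). D6Ertd527e stood at 3.75, 3.53 and 5.59 against 15.8, 33.5 and 20.3 (-2.15), a gene of which no role is stated here.

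Receptors for 3 myeloid growth factors were lower, while Flt3, which all cDCs use, did not pass. Of 25 growth factor and common gamma chain receptors, Csf1r, Csf2rb2 and Csf3r were lower and Il2rb was higher. Csf1r is also on the cDC2 identity, cDC2B and monocyte lists. Cd209a and Lyz2 are likewise on more than 1 list, so the falls counted in these lists are not separate. Csf3r stood at 2.99, 1.44 and 2.2 FPKM against 9.59, 10.6 and 4.68 (-1.49, adjusted p = 0.00831), and this call was lost when M-cDC2 replicate 2 was left out (adjusted p = 0.0598). Csf2rb2, a beta chain of the interleukin-3 receptor, stood at 2.75, 2.6 and 3.94 against 7.69, 7.92 and 6.84 (-1.06, adjusted p = 0.00261). Flt3 stood at 99.6, 100 and 128 FPKM against 122, 152 and 137 (-0.33, adjusted p = 0.265). Zbtb46, a transcription factor shared by cDCs, stood at 53.6, 53.1 and 56 against 54.8, 41.8 and 52.6. Il7r, whose locus drives the Cre, stood at 2.02, 2.27 and 4.29 FPKM in L-cDC2 against 2.58, 1.58 and 2.3 in M-cDC2, with overlapping groups (0.26, adjusted p = 0.809).

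Cytokine and chemokine transcripts that changed were all lower in L-cDC2, 6 of 25 tested. Ccl9, a chemokine of myeloid cells, stood at 1.63, 1.34 and 1.88 FPKM against 6.98, 9.6 and 8.52 (-1.84, SE 0.19, adjusted p = 8.88e-05), and the related Ccl6 at 9.21, 12.6 and 11.9 against 24, 35 and 35.9 (-1.4). Cxcl16, a membrane-bound chemokine, stood at 12.6, 13.3 and 8.21 against 23.6, 22.3 and 20.2. Il12b, the p40 chain of interleukins 12 and 23, stood at 0.64, 0.816 and 1.04 FPKM against 2.72, 2.31 and 2.68 (-0.97, adjusted p = 0.00539). Il1rn, the interleukin-1 receptor antagonist, stood at 2.4, 0.373 and 0.876 against 4.26, 3.87 and 3.78. Il1b, named after its values were seen, stood at 88.9, 86.7 and 90.2 against 183, 140 and 151. Without any 1 of the cDC2 libraries in turn Il1b lost its call (adjusted p up to 0.148), and Il1rn lost it in all but 1 such case (up to 0.12, kept without L-cDC2 replicate 1). Ltb4r1, the receptor for the lipid leukotriene B4, read 2.2, 0 and 3.12 FPKM against 8.93, 10.8 and 4.55. Its call ended without L-cDC2 replicate 1 or 2 or M-cDC2 replicate 1 or 2 (highest adjusted p 0.215). Among 20 positioning receptors it stood beside Ccr2 and Cx3cr1 on the lower side and S1pr1 on the higher.

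Some lysosomal products were also lower, though most genes of the lysosomal list did not pass. Psap, the precursor of the saposins that help to break down sphingolipids (chromosome 10, 60113449 to 60138376, plus strand in the deposited table), stood at 309, 382 and 275 FPKM in L-cDC2 and at 915, 927 and 763 in M-cDC2. The means were 322 ± 54.3 and 868 ± 91.2 (SD, n = 3 each), with a difference of -1.44 (SE 0.12, adjusted p = 2.85e-05). Of 25 lysosomal proteases and lipid enzymes, Psap, Cst3 and Npc2 were lower and 22 did not pass, with a median of -0.10. Cst3, the protease inhibitor cystatin C, stood at 635, 678 and 774 against 919, 1340 and 1052, and lost its call without L-cDC2 replicate 1 or 2 or M-cDC2 replicate 2 or 3 (highest adjusted p 0.1). Npc2, a carrier of lysosomal cholesterol, stood at 16.7, 21 and 18.9 against 27.7, 24.6 and 29.9, and lost it without replicates 1 and 3 of either group (up to 0.136). In the deposited annotation the label lysosome stood on 11 of the 98 lower genes (11.2%) and on 2 of the 78 higher ones (2.56%), against 2.37% of the genes tested. Lgals3, galectin-3, stood at 36.8, 48.9 and 43.2 FPKM against 83.2, 122 and 91.5 (-1.17, adjusted p = 0.00045). Wfdc17, a secreted inhibitor-like protein of myeloid cells, stood at 26.9, 18.2 and 16.7 against 78.3, 78.7 and 55.7 (-1.75). Fcer1g, the signalling chain of activating Fc receptors, stood at 743, 739 and 846 against 978, 1216 and 1114, a fall of 0.50 on the log2 scale whose call ended without L-cDC2 replicate 1 or 2 or M-cDC2 replicate 2 or 3 (highest adjusted p 0.162). Fcgrt, the neonatal Fc receptor, stood at 22.9, 19.8 and 18.5 against 33.7, 31.8 and 37.8 (-0.73, adjusted p = 0.00213).

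Depdc7, Mcub and Calhm6 complete the 20 largest falls among genes with a mean of at least 5 FPKM in M-cDC2. Depdc7 stood at 4.23, 2.63 and 5.86 FPKM against 11.5, 16.6 and 16.8 (-1.63). Mcub, a brake on mitochondrial calcium uptake, stood at 4.04, 1.91 and 3.3 against 9.17, 10.4 and 12.3 (-1.53), and Calhm6, a pore protein of macrophages, at 7.52, 11.2 and 6.8 against 18, 37.2 and 23.2 (-1.48).

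Most marker genes of monocytes and macrophages did not pass the test. Of 19 tested, 16 had a negative difference, 3 were called lower (Lyz2, Ace and Csf1r, described above), Apoe was called higher and 15 did not pass, with a median of -0.72. Their summed level was 1031, 1186 and 1011 FPKM in L-cDC2 and 1855, 1948 and 1722 in M-cDC2, and most of that gap was Lyz2. Without Lyz2, an alternative chosen after seeing the data, the sums were 809, 835 and 828 against 886, 926 and 918, and the groups still did not overlap. Adgre1 (F4/80) stood at 90.3 to 102 FPKM in L-cDC2 and 104 to 134 in M-cDC2, and Cd68 at 377 to 421 and 422 to 445. Other defining markers were near the floor in both groups: Ly6c2 at 1.39 to 2.8 and 0.527 to 1.5 FPKM, Cd14 at 0 to 1.05 and 1.01 to 1.67, Fcgr1 at 0 to 0.408 and 0 to 0.413, and Siglec1 at 0 in all 6. Apoe, the lipid carrier, stood at 77.8, 139 and 105 against 48.3, 50.01 and 50.9 (1.05, adjusted p = 0.00774). Neutrophil markers were near 0, apart from Csf3r, with S100a9 at 0 in 5 of the 6 libraries and Ly6g at 0 in all. The part of monocytes or macrophages in the falls was not tested.

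The largest rises were genes of lymphocytes. Ly6d, a surface protein of lymphoid progenitors, B cells and plasmacytoid DCs (chromosome 15, 74633905 to 74635469, minus strand in the deposited table), stood at 27, 71.5 and 39.5 FPKM in L-cDC2 and at 0, 1.1 and 0.347 in M-cDC2. Every L-cDC2 value was far above every M-cDC2 value (4.94, SE 0.42, limma adjusted p = 2.85e-05). Of 19 B cell markers tested, 12 were higher and 0 lower, the segments Igkc, Iglc2, Ighd and Ighm among the 12. Some, such as Fcmr and Iglc2, were near 0 in M-cDC2 and passed the level filter through L-cDC2 and L-cDC1 libraries. Such markers could hardly be called lower, so the 0 is partly set by the filter. Cd79a, a chain of the B cell receptor, stood at 15.2, 97.7 and 44.8 FPKM against 0.476, 0.216 and 0.85 (4.81, SE 0.47, adjusted p = 7.64e-05). Fcmr, the IgM Fc receptor, stood at 10.01, 22.5 and 13.7 against 0, 0.0363 and 0.0297 (3.93), and Fcer2a, the low affinity IgE receptor CD23, at 12.1, 13.3 and 7.98 against 1.53, 1.02 and 2.14 (2.24). These B cell genes were lowest in replicate 1 or 3 and highest in replicate 2 of L-cDC2. Fcrla, a cytoplasmic Fc receptor-like protein of B cells, was even across replicates at 6.52, 7.05 and 6.95 FPKM against 0.655, 0.433 and 0.71 (2.3). Not every B cell gene was near 0 in M-cDC2. Cd22, an inhibitory lectin, stood at 62, 74.1 and 71.4 FPKM in L-cDC2 and 69.4, 55 and 57.7 in M-cDC2, and Cd37 at 37.4 to 46.3 and 40.1 to 46.3. Pax5, which fixes B cell identity, stood under the level filter at 0.303, 0.995 and 0.187 against 0 in all 3 M-cDC2 libraries.

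**Figure D3:**
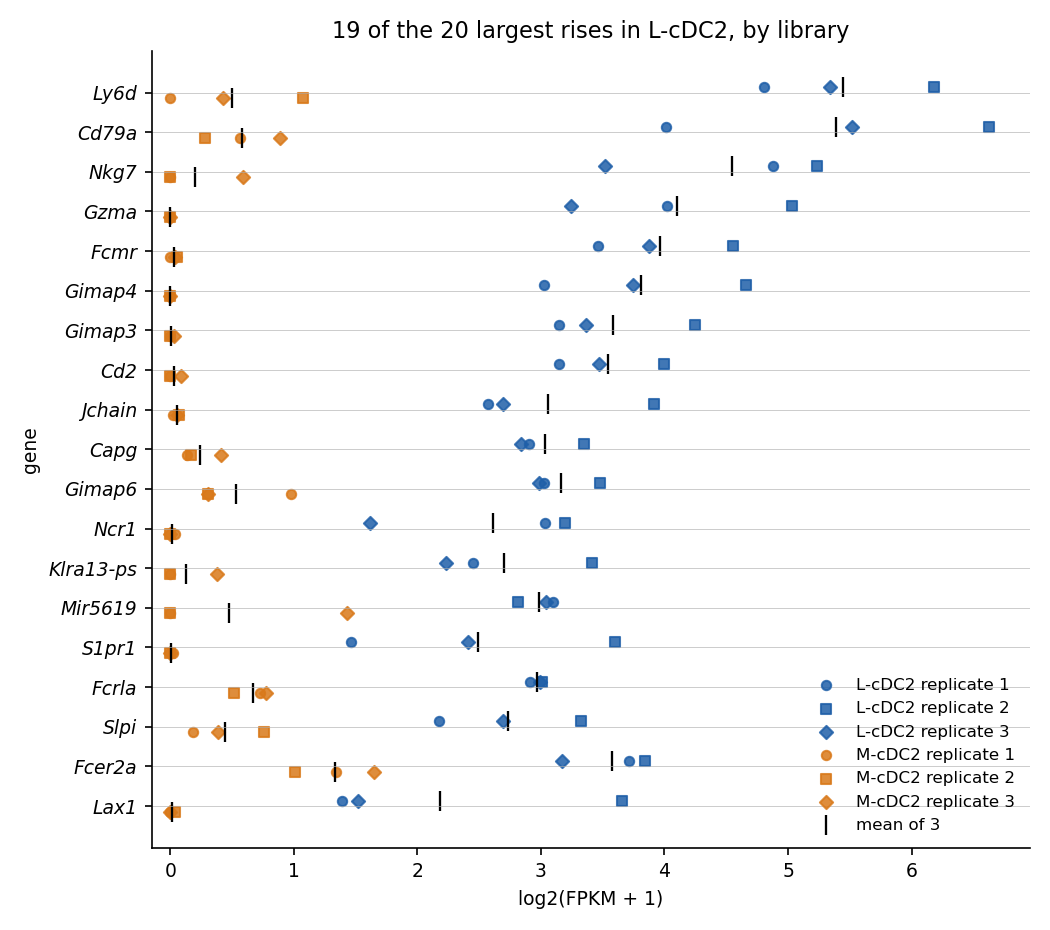
Levels of 19 of the 20 genes with the largest rises among those with a mean of at least 5 FPKM in L-cDC2, on the log2(FPKM + 1) scale (horizontal axis), 1 row per gene in order of the size of the difference. Blue marks are L-cDC2 and orange marks M-cDC2, with a symbol for each replicate and a black bar at the mean of 3. M-cDC2 marks lie at or near 0 for most genes, and L-cDC2 replicate 2 (blue squares) is the highest mark in most rows.

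T cell and natural killer (NK) cell genes rose as well. Of 21 T cell markers listed, 9 were tested, and of these 7 were higher and 0 lower, 3 of the 7 being receptor constant segments. Markers near 0 in M-cDC2, here and in the NK list, passed the level filter through other libraries and could hardly be called lower. Cd2, an adhesion receptor of lymphocytes, stood at 7.86, 15 and 10.1 FPKM against 0, 0 and 0.0593 (3.51, SE 0.30, adjusted p = 2.85e-05). Like Cd79a, it was lowest in replicate 1 and highest in replicate 2 of L-cDC2. Lck, a kinase of the T cell receptor, stood at 5.62, 5.64 and 3.5 against 0.0139, 0.215 and 0.211 (2.35), with exons that overlap Mir8119. Cd3e, a receptor subunit, stood under the level filter at 1.19, 0.371 and 0.257 against 0.01, 0.0463 and 0.0126. Of 18 NK and cytotoxic markers listed, 11 were tested, and of these 6 were higher and 0 lower. Gzma stood at 15.2, 31.7 and 8.49 FPKM with 0 reads in all 3 M-cDC2 libraries, so L-cDC2 was at least 119.6-fold higher against the level that 3 reads would give in each library. Nkg7, a granule protein, stood at 28.5, 36.7 and 10.5 against 0, 0 and 0.508 (4.35). Ncr1, the NK receptor NKp46, stood at 7.2, 8.13 and 2.08 against 0.0265, 0 and 0 (2.6). Prf1, perforin, stood at 5.67, 5.06 and 1.43 against 0, 0.0244 and 0 (2.19). Klra4 and Il2rb had 0 reads in M-cDC2 and were at least 27.2-fold and 97.5-fold higher. These NK genes were lowest in L-cDC2 replicate 3, unlike Cd79a, which was lowest in replicate 1. Ccl5 and Klrd1, which cDC2 of both groups expressed, did not pass, at 358, 377 and 440 FPKM against 322, 576 and 427 and at 108, 105 and 133 against 106, 79.6 and 104.

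Other rises belong to lymphocytes or to several immune lineages. Gimap3, Gimap4 and Gimap6 encode GTPases of lymphocyte survival. Gimap4 stood at 7.15, 24.2 and 12.4 FPKM with 0 reads in M-cDC2, at least 173-fold higher, Gimap3 at 7.83, 18 and 9.28 against 0, 0 and 0.02, and Gimap6 at 7.14, 10.1 and 6.92 against 0.969, 0.234 and 0.236. S1pr1, the receptor lymphocytes use to leave tissue, stood at 1.76, 11.1 and 4.32 against 0.0134, 0 and 0 (2.49). Jchain, which joins IgM and IgA chains, stood at 4.94, 14.1 and 5.45 against 0.0162, 0.05 and 0.041 (3.01). Capg, an actin-capping protein of macrophages and other cells, stood at 6.49, 9.18 and 6.14 against 0.0968, 0.125 and 0.326 (2.79, SE 0.19, adjusted p = 6.2e-06). Slpi, a protease inhibitor, stood at 3.52, 9.02 and 5.46 against 0.138, 0.694 and 0.306 (2.29), and its exons overlap Mir7678. Klra13-ps, a pseudogene of the Ly49 family that shares sequence with its relatives, stood at 4.48, 9.65 and 3.7 against 0, 0 and 0.297. Lax1, an adaptor of lymphocyte signalling, stood at 1.62, 11.6 and 1.86 against 0, 0.0273 and 0, and its call ended without any 1 of the M-cDC2 libraries (adjusted p up to 0.0969). Mir5619 stood at 7.57, 6.02 and 7.23 against 0, 0 and 1.69, and lost its call without 5 of the 6 cDC2 libraries in turn (adjusted p up to 0.188, kept without M-cDC2 replicate 3). Scd1, a fatty acid desaturase, stood at 1.13, 1.83 and 1.46 against 0.0167, 0.0386 and 0.0949 (1.23, adjusted p = 0.00787).

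Of 20 listed genes of the early lymphoid program, 9 were tested in the same fit, and 3 of these were higher with 0 lower. Beside Ly6d these were Tcf7, the T cell factor TCF-1, at 10.9, 9.53 and 14.7 FPKM against 3.99, 3.02 and 4.82 (1.36, adjusted p = 0.00365), and Ikzf3 (Aiolos) at 6.47, 6.74 and 3.15 against 2.37, 1.32 and 0.808. Ly6d is also on the plasmacytoid DC list and Tcf7 on the T cell list, so these calls are not separate from those. Being near 0 in M-cDC2, Ly6d could hardly be called lower. Tcf7 did not pass with a pseudocount of 0.1 FPKM (adjusted p = 0.38), and the Ikzf3 call ended without L-cDC2 replicate 1 or 2 or M-cDC2 replicate 2 or 3 (highest adjusted p 0.207). Rag1 and Dntt, active in cells that rearrange receptor genes, had 0 reads in all 6 cDC2 libraries, and Rag2 read 0 to 0.0268 FPKM. Of 9 plasmacytoid DC markers, Ly6d and the light chain segment Iglc3 were higher and 7 did not pass. Tcf4, the defining factor of that cell, stood at 2.41, 3.49 and 2.54 FPKM against 2.61, 2.49 and 2.47, and Siglech at 0.366 to 0.571 against 0.362 to 0.808, under the level filter.

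Summed without receptor segments, B cell markers held 269, 485 and 375 FPKM in L-cDC2 and 216, 188 and 185 in M-cDC2. T cell markers held 43.4, 46.3 and 44.1 against 13.4, 10.7 and 11.1. Neither pair of groups overlapped. NK markers held 546, 606 and 610 against 436, 666 and 540, sums that Ccl5 and Klrd1 dominate. Erythroid and platelet markers held 10.9 to 16.7 against 9.71 to 14.9, with 0 of 6 called, and stromal and endothelial markers 26.2 to 27.3 against 19.6 to 20.8, with 0 of 2 called. Prg2, an eosinophil granule protein, was called higher at 1.55, 5.26 and 2.5 FPKM against 0.731, 0.301 and 0.123, and lost its call without L-cDC2 replicates 2 and 3 and without any 1 of the M-cDC2 libraries (adjusted p up to 0.182). Of the 78 higher genes, 58 had their highest L-cDC2 value in replicate 2, and 12 and 8 in replicates 1 and 3. For the 98 lower genes the numbers were 34 in replicate 2, and 20 and 44 in replicates 1 and 3. The shares over all tested genes are not given here. Without L-cDC2 replicate 2, 46 genes were higher, of which 42 were among the 78. The part of lymphocytes in these rises was not tested.

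**Figure D4:**
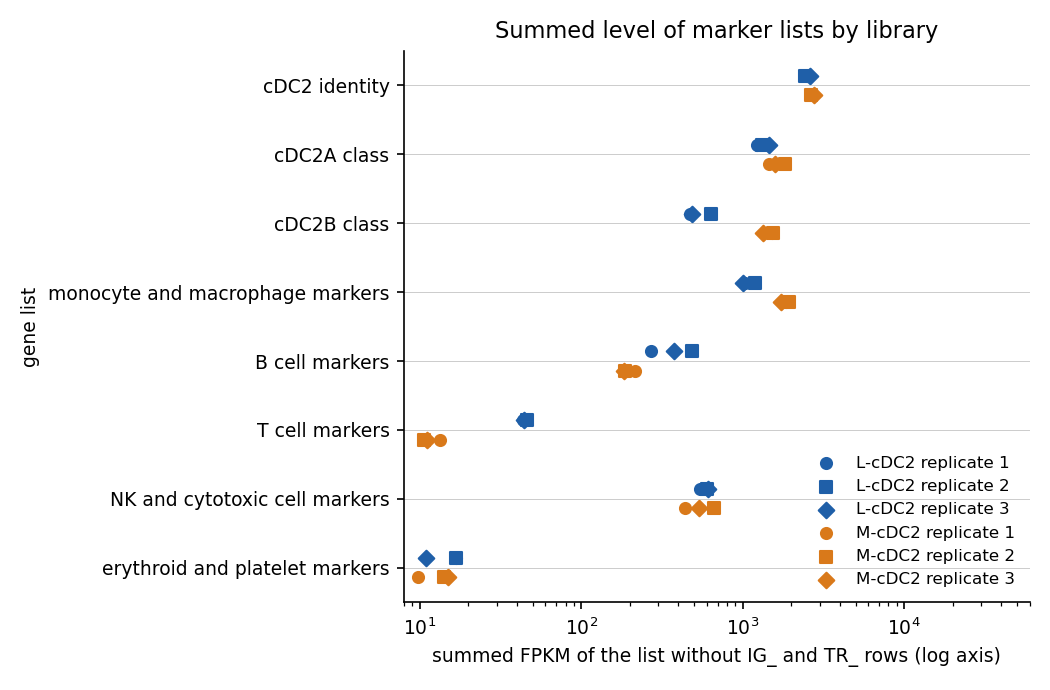
Summed FPKM of 8 marker lists in each cDC2 library, without IG_ and TR_ rows (horizontal log axis), with blue marks for L-cDC2, orange marks for M-cDC2 and a symbol for each replicate. The groups stand apart for the cDC2B, monocyte, T cell, B cell and cDC2 identity lists, and overlap for the cDC2A, NK and erythroid lists. Cst3, which was called lower in L-cDC2, makes up most of the cDC2A sum in each library. Lyz2 makes up most of the gap for the monocyte list, and Lyz2 and Cd209a much of it for the cDC2B list. For the cDC2 identity list Cd209a makes up most of the gap.

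Immunoglobulin and T cell receptor segments were higher in L-cDC2 in 51 of 93 tested rows, 54.8%, and lower in 0. The deposited data held 702 such rows, and a row could pass the level filter through the 3 L-cDC2 libraries alone. Ighv3-6, Ighv1-18 and Igkv13-84, for example, read 0 in all M-cDC2 and cDC1 libraries. Such rows could not be called lower, so the share and the 0 are partly set by the filter. The 51 comprised 32 of 62 immunoglobulin V segments, 8 of 12 J segments, 8 of 10 constant segments and all 3 T cell receptor constant segments tested. The median log2 difference of the 51 was 3.39, from 1.03 to 7.86, and 28 of them had 0 reads in all M-cDC2 libraries. Igkc, the constant segment of the kappa light chain (chromosome 6, 70703419 to 70703950, plus strand in the deposited table), stood at 270, 1977 and 724 FPKM in L-cDC2 and at 2.07, 2.13 and 2.23 in M-cDC2 (7.86, SE 0.54, adjusted p = 6.2e-06). Replicate 2 held the most in 40 of the 51 rows. The lambda segments Iglc1 and Iglc2 stood at 32.4, 130 and 57.4 and at 41, 162 and 69.9 FPKM, against 0 to 0.0899 and 0 to 0.422. Ighm, the heavy chain of IgM, was present in both groups at 494, 950 and 610 against 332, 322 and 312 FPKM (1.03, adjusted p = 0.00641), and is the smallest of the 51 differences. The V segment Igkv12-46 stood at 24.9, 398 and 155 against 0, 0.167 and 0.684, and did not pass on recovered reads (adjusted p = 0.143). Igkv12-41 stood at 1.33, 117 and 57.5 against 0 in all, and lost its call without L-cDC2 replicates 2 and 3 and without any 1 of the M-cDC2 libraries (adjusted p up to 0.11). Trac, Trbc1 and Trbc2 stood at 3.78 to 5.16, 4.56 to 9.19 and 4.78 to 14.6 FPKM in L-cDC2, and at 0 to 0.337, 0 and 0 in M-cDC2.

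Many different V segments contributed. At least 3 reads fell on 49, 72 and 67 kappa V segments in L-cDC2 replicates 1 to 3 and on 3, 1 and 5 in M-cDC2. For heavy chain V segments the numbers were 33, 67 and 53 against 1, 0 and 0. These rows took 0.135%, 0.426% and 0.207% of the reads in L-cDC2 and 0.0644%, 0.062% and 0.0611% in M-cDC2. V segments resemble each other, so reads may be split between them, and Iglc2 shares exons with Iglj2. Exons of Cx3cr1, Cxcl16, Csf2rb2, Anxa2 and Iglc3 also overlap another gene of the table, so their values carry the same doubt. Interval and floor statements cover counting error only, since reads copied by PCR could not be told from separate molecules.

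Most genes of antigen presentation and activation did not pass in either direction. None of 15 MHC class II genes was called, 10 having a negative difference, and H2-Aa came nearest at 2260, 2265 and 2406 FPKM against 2763, 2883 and 2926 (-0.31, adjusted p = 0.0523). Cd74, the invariant chain, stood at 19040.4, 18166 and 18796 FPKM against 22553, 19986 and 19706. Counts were also 0 of 22 for MHC class I presentation, 0 of 38 for the type I interferon response, 0 of 39 for the cell cycle, 0 of 25 for immediate early genes, 0 of 25 for costimulatory and checkpoint molecules, 0 of 17 for the Notch pathway and 0 of 25 for glycolysis. They were 0 of 14 for guanylate-binding GTPases, 0 of 20 each for the unfolded protein response and for survival and death genes, and 0 of 21 for feedback genes of AP-1, NF-kB and MAP kinases. Of 13 Fc receptors and chains, Fcmr, Fcrla and Fcer2a were higher and Fcgrt and Fcer1g lower, and of 23 sterol genes Apoe and Scd1 were higher. Of 27 genes of mature migratory DCs, 3 were lower. Ccr7, which guides DCs to lymphatic vessels, stood at 74.4, 68.1 and 76.3 FPKM against 80.7, 58.4 and 69.99. Tmem176a and Tmem176b, membrane proteins encoded on opposite strands with overlapping exons, stood at 76, 66.8 and 80.2 against 143, 174 and 124 and at 226, 224 and 254 against 356, 321 and 366. Apol7c, a relative of the apolipoprotein L family, stood at 58.9, 48.4 and 62.5 against 76.4, 72.4 and 79.98. The calls of Tmem176b and Apol7c were lost without L-cDC2 replicate 1 or 2 or any 1 of the M-cDC2 libraries (adjusted p up to 0.149 and 0.192). Of 42 DC transcription factors 41 did not pass, among them Spi1 (PU.1) at 238, 216 and 233 FPKM against 239, 216 and 225. Of 29 innate sensors Tlr12, a sensor of profilin, was called, at 3.95, 3.21 and 4.32 against 0.784, 1.15 and 1.22 (1.23, adjusted p = 0.000436). Anxa2, the second called gene of the S100 and annexin list beside Lgals3, was lower at 72, 68.5 and 72.6 against 91.2, 121 and 100, and lost its call without 5 of the 6 libraries in turn (up to 0.212, kept without M-cDC2 replicate 1).

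The same contrast in cDC1 asked whether a difference was shared between the subsets. Of the 78 higher genes 13 were also higher in L-cDC1, and of the 98 lower genes 3 were also lower and Il12b was higher, where 0.394% of all rows were called in cDC1. The median difference in cDC1 was 0.45 over the higher genes and -0.1 over the lower ones, against 0.02 over all genes tested. The difference between the subsets itself, an interaction, passed for 37 rows (0.298%). Outside receptor segments these were 31 genes, 26 of them called in cDC2, namely 20 of the 98 lower and 6 of the 78 higher. Ly6d differed by 4.94 in cDC2 and 4.67 in cDC1 (interaction adjusted p = 0.948), and Cd79a by 4.81 and 3.76 (0.732). Psap is abundant in cDC1, at 4092 to 4282 FPKM in L-cDC1 and 3548 to 4387 in M-cDC1, where the groups overlapped (interaction -1.48, SE 0.18, adjusted p = 0.00581, and 0.0589 without a filter on low values). Il12b stood at 26.5, 26.9 and 38.5 FPKM in L-cDC1 while M-cDC1 held 16.9, 15.9 and 15.5, opposite to cDC2 (interaction -1.83, SE 0.23, adjusted p = 0.00581). On recovered reads its interaction did not pass (limma-voom adjusted p = 0.0868). Lyz2 stood at 329, 318 and 319 in L-cDC1 while M-cDC1 held 420, 418 and 474 (interaction -1.49, adjusted p = 0.025), a call that ended in 9 of the 12 cases in which 1 library was left out (adjusted p up to 0.0831). Phc1, a Polycomb subunit, stood at 27.7, 21.7 and 24.2 in L-cDC2 against 10.05, 12.7 and 11.3 in M-cDC2, and at 0.7 to 1.17 and 1.63 to 1.67 in cDC1 (interaction 1.57, adjusted p = 0.0106), and this call was also lost on recovered reads (adjusted p = 0.0756). Olfm1, a secreted glycoprotein best known from neurons, stood at 0.791, 0.646 and 1.64 FPKM in L-cDC2 against 4.32, 3.47 and 3.66 in M-cDC2, while in cDC1 it stood at 42.2, 51.5 and 44.7 against 37.7, 30.4 and 28.1 (interaction -1.79, adjusted p = 0.0106). For Cd300lb and Clec4a3 the cDC1 levels were under 1 FPKM in every library, which leaves little room for a fall there.

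**Figure D5:**
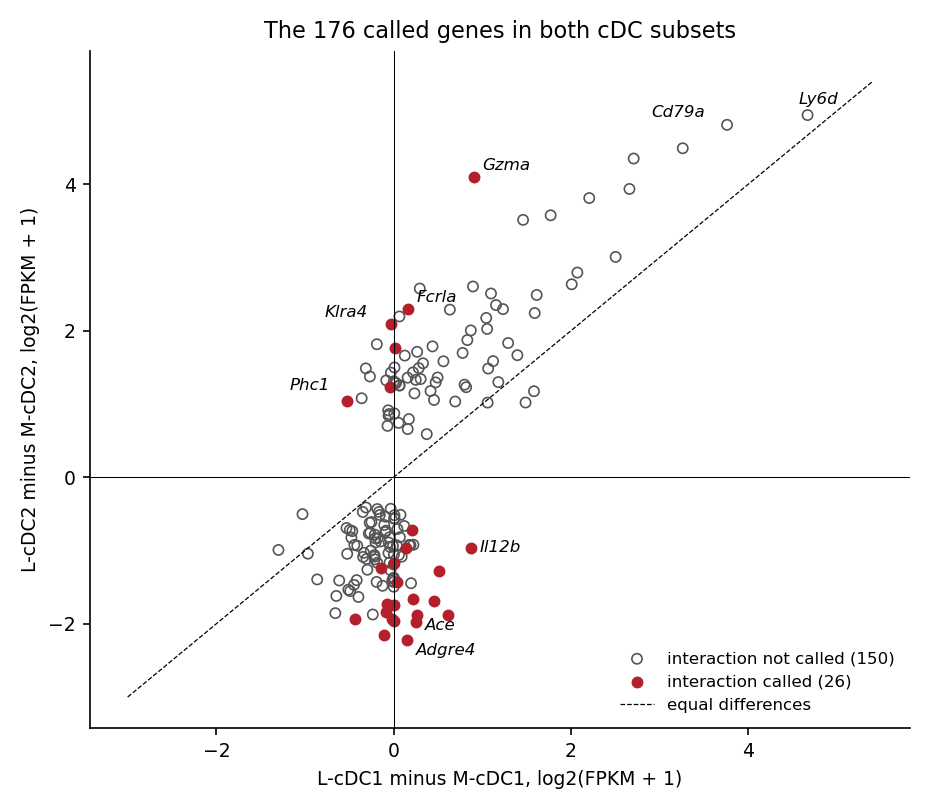
Difference L minus M in cDC2 (vertical axis) against that in cDC1 (horizontal axis), both on the log2(FPKM + 1) scale, for the 176 called genes outside receptor segments. Filled red points are the 26 genes whose interaction was called and open points the others, and the dashed line marks equal differences. Most falls in cDC2 stand near 0 in cDC1, while the largest rises are above 0 on both axes.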

How the data were processed

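RNA from sorted spleen cDCs was made into libraries with a SMART-Seq HT and a Nextera XT kit, per the labels' protocols. These kits keep no strand. The tools listed, with no order or role, are DESeq2 1.20.0, cutadapt 3.7, featureCounts 2.0.1, Trimmomatic 0.39, STAR 2.7.9a and Trim Galore 0.6.7, per the submitters' processing notes. The notes also name the human build GRCh38, although the gene symbols are those of mouse, so the build behind the coordinates is not given in the sources used here. Values in FPKM for 55322 rows in 12 libraries were deposited by the authors. FPKM times gene length gave whole reads within 0.01 read for 100% of values, so read totals could be recovered.

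Rows had to reach 1 FPKM in 3 or more of the 12 libraries. limma 3.58.1 in R 4.3.3 was fitted with an intensity trend to log2(FPKM + 1) over all 12 libraries, with 1 mean per group and 8 residual degrees of freedom. All p-values were adjusted by Benjamini-Hochberg over the 12434 rows tested. Fold changes on this scale understate the change of low genes. Alternatives were other pseudocounts, filters and scalings, cDC2 libraries alone, the replicate number as a block, limma-voom on recovered reads, and leaving out each library.

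Named genes were the 20 largest rises and falls with a mean of at least 5 FPKM in the higher group and no overlap between groups, up to 5 called members of each of 40 lists, 26 markers named whatever their result, the 10 strongest interactions and 6 receptor segments. A few of these genes are not reported here. Other members of the lists were named after their values were seen. The members and lists were chosen with earlier results of these data known. Promoters came from RefSeq (GRCm38.p6).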

Additional observations from a re-analysis of the deposited data

Results flagged for a closer look

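The difference between L and M in cDC2 differed from that in cDC1 for 37 rows by limma's test of the difference itself. Given here are the 20 of these that are among the named genes. The value given for each is the cDC2 difference minus the cDC1 difference, on the log2(FPKM + 1) scale.

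Of the 20 values, 14 are negative. Among genes that cDC1 also expressed, Il12b reached -1.83, Psap -1.48, Olfm1 -1.79, Lyz2 -1.49 and Lgals3 -1.17. Lgals3, galectin-3, stood at 348, 333 and 388 FPKM in L-cDC1 while M-cDC1 held 321, 404 and 346, so the groups overlapped there, while the cDC2 groups did not. Clec7a (-2.14), Wfdc17 (-1.75) and Tmem176a (-1.1) were low but present in cDC1, with Tmem176a at 7.37 to 8.88 FPKM in L-cDC1 and 6.24 to 8.03 in M-cDC1. The remaining 6 were under 1 FPKM in every cDC1 library: Ace (-2.23), Adgre4 (-2.37), Cd300lb (-1.93), Clec4a3 (-1.88), D6Ertd527e (-2.03) and Ccl9 (-1.75).

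Positive values were found for Phc1 (1.57), Fcrla (2.14), Tlr12 (1.28), Klra4 (2.12), Gzma (3.2) and the kappa V segment Igkv12-46 (6.24). Fcrla was abundant in both cDC1 groups, at 20.9, 39.4 and 37.6 FPKM in L-cDC1 and 20.7, 34 and 31.1 in M-cDC1, against 6.52 to 7.05 in L-cDC2 and 0.433 to 0.71 in M-cDC2. Tlr12 stood at 47.7 to 53.3 FPKM in L-cDC1 and 44 to 62.4 in M-cDC1. Gzma read 2.1, 0 and 1.19 FPKM in L-cDC1 and 0.0443, 0 and 0 in M-cDC1, and Igkv12-46 reached 1.15 in 1 L-cDC1 library.

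Of the 20, Ace and Olfm1 kept the call under every alternative tried, and 18 lost it under at least 1. On recovered reads 15 lost it, and 12 lost it when 1 library was left out, with adjusted p rising to between 0.0577 (Adgre4, Fcrla, Ccl9 and Igkv12-46) and 0.121 (Gzma). Adgre4, Ccl9 and Wfdc17 lost it without M-cDC2 replicate 2 alone, and Fcrla and Igkv12-46 without that library or M-cDC1 replicate 2. What sets the subsets apart in these genes was not tested.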

How the results depend on the processing

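Over all alternatives, 47 of the 82 named genes called kept their call, 35 lost it under at least 1, and 0 turned their sign. With a filter of at least 5 FPKM in 3 libraries, 39 genes were higher and 25 receptor segments were called, since fewer rows were tested. With the cDC2 libraries alone, 46 were higher and 55 lower, and 27 named genes lost their call, among them Olfm1, Calhm6, Naaa, S1pr1, Il2rb, Clec12a, Il12b, Ighm, Clec9a, Cxcl16 and Apoe. Without a filter on low values 19 did, Mcub and Ccl6 included. Interaction calls fell to 21 with a pseudocount of 0.1 and to 10 on recovered reads, where Il12b and Clec9a also lost their cDC2 call. The cause was not tested. On recovered reads limma-voom called 86 higher and 85 lower, of which 57 and 69 were among the 78 and 98.

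Leaving out 1 library gave 46 to 74 genes higher, 55 to 92 lower, 42 to 66 receptor segments and 10 to 38 interactions. Counts moved by over 1.5 times without L-cDC2 replicate 1 (64 lower), L-cDC2 replicate 2 (46 higher), M-cDC2 replicate 2 (48 higher, 55 lower, 10 interactions) and M-cDC2 replicate 3 (50 higher). For the interactions this was also so without L-cDC1 replicates 2 and 3 (24 each), M-cDC1 replicate 2 (14) and M-cDC1 replicate 3 (21). Uncalled differences near 0 turned sign when 1 library was left out: Tcf4 ranged from -0.021 to 0.18, Klf4 from -0.099 to 0.28, Irf8 from -0.24 to 0.20 and Notch2 from -0.090 to 0.047, and Notch2 moved to 0.0034 on recovered reads.

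With the replicate number as a block, 78 genes were higher, 103 lower, 52 receptor segments and 25 interactions were called, and Tmem176b, Fcer1g, Ltb4r1, Ikzf3 and Anxa2 lost their call. Deviations of libraries with the same number correlated at 0.0427, 0.00495 and 0.0309, so the numbers were not taken as pairs. Each L-cDC2 library correlated best with the M-cDC2 library of its own number, a hint from the data and not from the design. Of the 78 rises, 51 start from a mean under 1 FPKM, and an effect of depth on them was not tested.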

Other observations

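Several called genes outside the naming rule are given here because their calls held under every alternative tried. They were chosen after their values were seen. Cdh17, a cadherin of gut epithelium and of some B cells, stood at 28.9, 19 and 21.3 FPKM in L-cDC2 against 8.16, 4.56 and 6.45 in M-cDC2 (1.71, SE 0.22, limma adjusted p = 0.000578). Col17a1, a transmembrane collagen of epithelia, stood at 12, 10.4 and 7.53 against 2.83, 1.5 and 2.43 (1.76), and at under 0.1 FPKM in every cDC1 library. Neither was highest in L-cDC2 replicate 2. Tnfrsf13c, the BAFF receptor, stood at 9.37, 13.4 and 9.31 against 2.39, 3.04 and 3.17, and Ms4a1 (CD20) at 9.1, 14.1 and 11.3 against 4.16, 1.99 and 3.8.

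On the lower side, Kcne3, a potassium channel subunit, had 0 reads in all L-cDC2 libraries and stood at 2.2, 3.89 and 2.81 FPKM in M-cDC2, so L-cDC2 was at least 37-fold lower against the level of 3 reads in each library. Abca9, a lipid transporter, stood at 0.6, 0.502 and 1.02 against 4.55, 4.76 and 4.47 (-1.72). Slc11a1, the metal transporter NRAMP1 of phagosomes, stood at 0.861, 0.991 and 0.863 against 3.83, 3.67 and 2.99 (-1.24), while cDC1 libraries held 47.8 to 70.1. Ear2, a secreted ribonuclease of eosinophils and macrophages, stood at 59.5, 65.2 and 64.8 against 156, 112 and 129 (-1.05), and Tgfbi, a matrix protein, at 51.2, 53.4 and 54.8 against 117, 111 and 108 (-1.06). Ifitm2, which blocks entry of viruses, stood at 74.8, 58.2 and 76.5 against 115, 143 and 115 (-0.83). Dnase1l3, a secreted DNase of DCs and macrophages, stood at 93.5, 103 and 99.3 against 138, 151 and 134 (-0.51, adjusted p = 0.00937).

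In the deposited annotation the label inflammatory response stood on 9.18% of the 98 lower genes and 2.56% of the 78 higher ones, against 1.29% of the genes tested. The label chemotaxis stood on 6.12% and 1.28%, against 0.462%. Adaptive immune response leaned the other way, on 1.02% of the lower and 7.69% of the higher genes, against 0.721%. Plasma membrane stood on 27.6% and 32.1%, against 14.3%, and nucleus on 19.4% and 17.9%, against 33.6%. With lysosome, given above, these were all the labels looked at. These shares were not tested.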
